A study of Rattus norvegicus with 6 samples.

Results

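The gp130 cytokines and their receptors were examined in neonatal rat ventricular cardiomyocytes (NRVCs) cultured with or without C3a, the fragment released when complement C3 is cleaved. The 10 genes were taken by name: the shared signalling chain Il6st (gp130), its partner chains Lifr and Osmr, the ligand-binding chains Il6r, Il11ra1 and Cntfr, and the ligands Il6, Lif, Osm and Ctf1. They are 10 of the 16575 rat genes that could be named from a probe accession and read on all arrays, and each was read from its probe with the highest mean signal. The cells came from the ventricles of 8 to 10 newborn Sprague-Dawley rats aged 1 to 2 days and were kept in serum-free medium per the sample records, or starved in 1% serum per the methods. There were 3 control samples in medium alone and 3 samples given recombinant C3a at 0.5 µg/ml for 12 h, each on its own 1-colour Agilent array. Nothing in the records says that the samples of a group were separate preparations, so the p-values below measure the spread between these samples, which may be technical.

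gp130 is the membrane protein through which the interleukin 6 family signals. A ligand gathers a receptor complex that holds gp130, either as a pair of gp130 chains or as gp130 with Lifr or Osmr, and for several ligands also a binding chain. The receptor-bound JAK kinases then phosphorylate STAT3 and start the Ras-ERK cascade. STAT3 in turn switches on Socs3, which shuts the receptor down. In the heart the family is known for hypertrophic growth and survival of cardiomyocytes, with cardiotrophin 1 (Ctf1) named for that action, and for the remodelling response to oncostatin M. The comparison asks whether C3a, which acts through its own receptor, changed the expression of this ligand and receptor set.

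All 6 arrays lay on 1 slide, and the controls and the C3a arrays occupied different sides of it, so position and treatment cannot be told apart. Control replicate 1 stood apart: its median background around the spots was 47 intensity units, with 23 to 24 elsewhere, and 38.6% of its probes passed the scanner software's mark for a signal well above background, with 53.7% to 57.3% elsewhere. On that array the dimmest probe that counted as well above background had 56.4 intensity units, against 10.2 to 11.8 on the others. All 10 cardiomyocyte markers examined passed that mark on each of the 6 arrays, and so did 7 of 10 fibroblast, 5 of 7 endothelial and 2 of 10 macrophage markers. Markers of other cell types were thus measured beside those of cardiomyocytes, and in such bulk samples fewer cells of a type and less RNA per cell cannot be told apart.

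The family was detected in part. Levels are given as relative log2 signal, in which 0 is the 75th percentile of the probes of that array, which lay between 207 and 367 intensity units. Of the 10 genes, Il6st and Il11ra1 were well above background on all 6 arrays. Lifr, Il6r, Lif, Osm and Ctf1 were well above background on the 5 arrays other than control replicate 1, where their signals, from 22.0 to 74.9 intensity units, did not pass. Osmr, Cntfr and Il6 did not reach that mark on any of the 6. By a more lenient mark of the scanner software, a signal that is positive and significant against background, 7 genes passed on all 6 arrays, Osmr passed on 2 of 3 control and 3 of 3 C3a arrays, and Cntfr and Il6 passed on none.

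**Figure D1:**
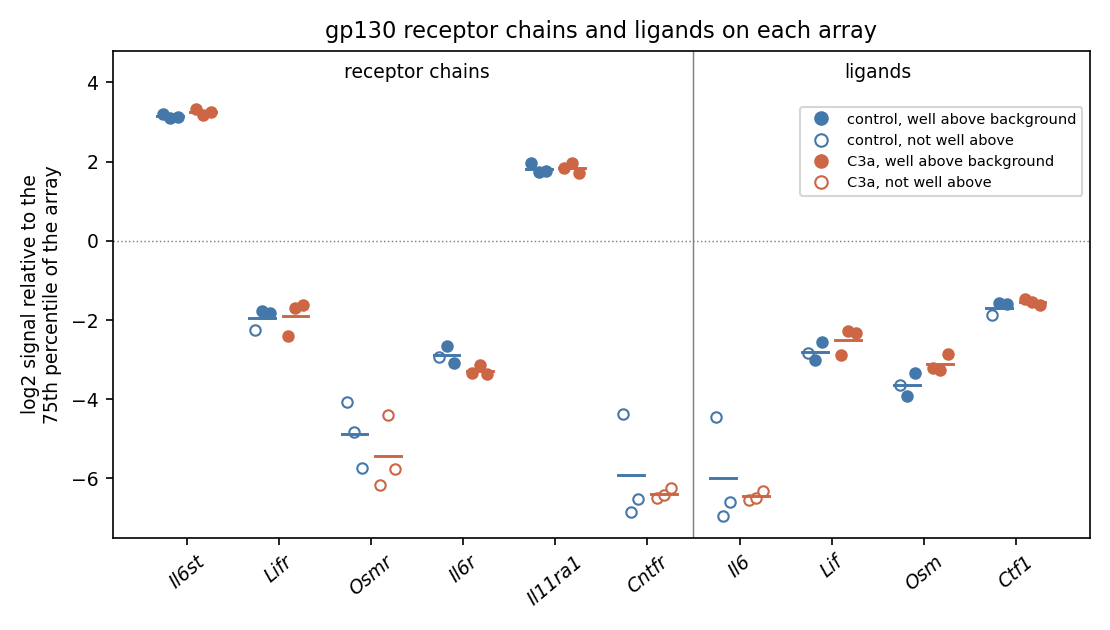
Relative log2 signal (0 is the 75th percentile of each array) for the 6 receptor chains and 4 ligands on each array. Points are arrays in order of replicate number, filled where the probe was well above background, and bars are group means; Il6st and Il11ra1 lay above 0 on every array, and Osmr, Cntfr and Il6 were open on every array.

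For Il6, the ligand that gives the family its name, the signal lay between 2.49 and 3.17 intensity units on the 5 arrays other than control replicate 1, where it was 12.5, close to the lowest signal of any probe on each array. The Cntfr probe, for the binding chain of ciliary neurotrophic factor, gave 2.57 to 3.38 intensity units on those 5 arrays and 13.2 on control replicate 1. The Osmr probe, for the chain that pairs with gp130 to receive oncostatin M, gave 16.2, 12.9 and 5.01 intensity units in the controls and 3.20, 13.7 and 3.84 with C3a. These 3 genes had 1 probe each. No difference is given for them, because neither group was measured above background.

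RefSeq start-site windows are shown for the undetected ligand Il6, for the undetected chain Osmr and for Il6r, the chain that was lower on every C3a array (below). Each line gives the 250 bases before the start on GRCr8, 5′ to 3′ on the strand of the gene, at the start site listed, and other transcripts of Osmr and Il6r may start elsewhere. Capitals mark matches, on either strand, to the cyclic AMP response element TGACGTCA, the C/EBP letters TTNNGCAA, the AP-1 letters TGANTCA and the STAT letters TTCNNNGAA.
Il6 (chr4:5894576-5894825, minus strand): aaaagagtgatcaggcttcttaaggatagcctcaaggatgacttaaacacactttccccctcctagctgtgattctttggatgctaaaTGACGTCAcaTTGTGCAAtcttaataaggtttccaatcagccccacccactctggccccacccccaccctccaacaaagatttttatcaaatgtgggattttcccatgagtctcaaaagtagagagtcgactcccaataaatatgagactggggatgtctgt
Osmr (chr2:57688562-57688811, minus strand): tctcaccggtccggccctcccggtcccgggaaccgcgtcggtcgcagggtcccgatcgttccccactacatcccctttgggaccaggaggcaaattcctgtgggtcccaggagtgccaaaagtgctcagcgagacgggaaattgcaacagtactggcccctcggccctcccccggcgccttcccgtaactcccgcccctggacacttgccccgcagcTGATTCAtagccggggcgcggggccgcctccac
Il6r (chr2:177645210-177645459, minus strand): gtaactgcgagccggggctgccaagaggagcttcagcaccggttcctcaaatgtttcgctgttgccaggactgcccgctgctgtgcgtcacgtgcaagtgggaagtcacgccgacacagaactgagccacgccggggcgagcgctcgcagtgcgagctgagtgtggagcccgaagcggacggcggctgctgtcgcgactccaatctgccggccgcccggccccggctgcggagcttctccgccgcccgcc

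In Il6 the cyclic AMP response element began 162 bases and the C/EBP match 152 bases before the start, and the 2 matches did not overlap. The only match in Osmr was the AP-1 letters, 33 bases before the start, and Il6r held none. Of 33469 such windows in the rat table, 1.59% held the cyclic AMP response element, 9.22% the C/EBP letters, 6.34% the AP-1 letters and 7.67% the STAT letters. The table held windows for 6 of the 10 genes, and none of these 6 had the STAT letters. The Il6st window among them is not printed, because it may belong to an inner start site and so may miss the main promoter. A match describes letters and not a bound site, and no binding was measured in these samples.

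Of the 10 genes, 7 could be compared between C3a and control, and 0 of them passed an adjusted p under 0.05 from limma, as did 0% of the 23438 probes tested, for which the lowest adjusted value was 0.697. Before adjustment, at p under 0.05 from limma, 1 of the 7 was higher with C3a (Osm) and 1 was lower (Il6r), where 3.34% of all tested probes were higher and 2.48% lower. Both genes, like Lifr, Lif and Ctf1, entered the test through the C3a group alone, since control replicate 1 did not detect them. The same held for most of the probes that 1 group brought in: 23425 of the 23438 passed the background mark on all C3a arrays and 17519 on all control arrays. Such a filter can favour a dim probe that is higher with C3a, as that of Osm was. Osm and Il6r also passed the mark on control replicates 2 and 3. The same 2 genes were the ones whose groups did not overlap: the C3a group lay wholly above the controls for 8.04% of all tested probes and wholly below them for 4.46%. Counts of 1 in 7 are too small to be set apart from these shares. The median difference was 0.10 on the log2 scale over the 7 genes, 0.036 over all tested genes and 0.048 over all tested probes.

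Osm encodes oncostatin M, a ligand made mainly by macrophages and other leukocytes. Its relative log2 signal was -3.64, -3.93 and -3.33 in the controls and -3.22, -3.27 and -2.85 with C3a. All 3 C3a arrays lay above all 3 controls. The mean was -3.63 ± 0.30 (SD, n = 3) without and -3.11 ± 0.23 (SD, n = 3) with C3a, a difference of 0.52 (standard error 0.18, 95% interval 0.087 to 0.95), or 1.43-fold. The unadjusted p from limma was 0.0250, rank 670 of 23438, and the adjusted p was 0.743. A two-sided exact permutation test gave p = 0.1, the smallest that 3 against 3 arrays allow.

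Arrays with the same replicate number deviated together, and within these numbers the Osm difference was 0.41, 0.67 and 0.48. The records do not say that a number marks a shared preparation, so the pairing was taken from these same arrays. With the replicate block, that is with the numbers as pairs, the unadjusted p from limma was 0.00238 and the adjusted p was 0.221. The probe was dim: control replicate 1 did not measure it above background, and without that array the difference was 0.52. Without control replicate 2 it was 0.37 (unadjusted p = 0.0736 from limma) and without C3a replicate 3 it was 0.39 (unadjusted p = 0.0857 from limma). Without normalization between arrays the difference was 0.19, and with scaling to the 7 spike-in probes 0.070, settings in which the median of all tested probes moved to -0.28 and -0.40. It was 0.27 after normexp background correction (unadjusted p = 0.0806 from limma) and 0.28 with array weights (unadjusted p = 0.111 from limma).

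Macrophage markers are given beside Osm because macrophages make it. Of the 10 markers, Cd163 and C1qa passed the background mark on no array and Ptprc on 1. Of the 5 markers tested, named here after their values were seen, Cd68 and Lyz2 were well above background on every array and differed by -0.16 and -0.088. Itgam, Csf1r and C1qb were tested through the C3a group alone and differed by 0.63, 0.41 and 0.21, where the unadjusted p from limma was 0.00700 for Itgam and 0 of the 5 passed an adjusted p under 0.05. Summed over all 10 markers as multiples of the 75th percentile, the level was 6.02 to 7.59 in the controls and 6.07 to 6.60 with C3a, so these sums overlapped. The mean relative log2 signal of the 5 tested markers was -1.57 to -1.39 in the controls and -1.32 to -1.14 with C3a, without overlap. That mean includes Itgam, Csf1r and C1qb, which the C3a group alone brought in. The part of macrophages in the Osm difference was not tested.

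Il6r encodes the chain that binds interleukin 6 and, in shed form, also lets cells without it respond. Its relative log2 signal was -2.94, -2.65 and -3.10 in the controls and -3.34, -3.12 and -3.36 with C3a. All 3 C3a arrays lay below all 3 controls, with C3a replicate 2 only just below control replicate 3. The mean was -2.90 ± 0.23 (SD, n = 3) without and -3.27 ± 0.13 (SD, n = 3) with C3a, a difference of -0.38 (standard error 0.14, 95% interval -0.71 to -0.045), or 0.769-fold. The unadjusted p from limma was 0.0315, rank 856 of 23438, the adjusted p was 0.743, and the two-sided exact permutation test gave p = 0.1.

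Within the replicate numbers the Il6r difference was -0.40, -0.48 and -0.26, and with the replicate block the unadjusted p from limma was 0.00836 and the adjusted p was 0.238. Another probe, for a predicted Il6r transcript, passed the background mark nowhere. Without control replicate 1, which did not measure Il6r above background, the difference was -0.40. Leaving out control replicate 2 gave -0.25 (unadjusted p = 0.0752 from limma), and leaving out C3a replicate 1 or 3 gave -0.35 or -0.34 (unadjusted p = 0.0897 or 0.0906). After normexp background correction of the median spot signal it was -0.038.

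**Figure D2:**
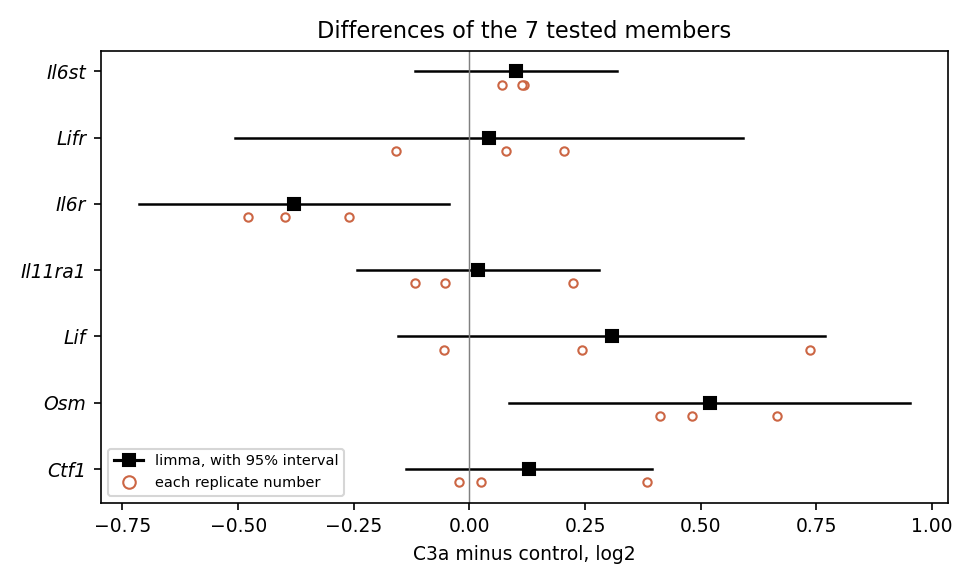
Difference between C3a and control, in log2 units, for the 7 genes that could be tested. Squares are limma estimates with 95% intervals and open circles are the differences within each replicate number; the intervals of Osm (0.087 to 0.95) and Il6r (-0.71 to -0.045) leave out 0 before adjustment, and the other 5 include it.

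Il6st, the signalling chain that all of these ligands share, was well above background throughout. Its relative log2 signal was 3.20, 3.10 and 3.13 in the controls and 3.32, 3.17 and 3.25 with C3a, with C3a replicate 2 inside the range of the controls. The mean was 3.15 ± 0.05 (SD, n = 3) without and 3.25 ± 0.07 (SD, n = 3) with C3a, a difference of 0.10 (95% interval -0.12 to 0.32, adjusted p = 0.763 from limma). For this probe the interval runs from 0.921-fold to 1.25-fold.

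A further Il6st probe of the same accession, also well above background throughout, differed in the other direction. It read 0.30, 0.88 and 0.25 in the controls and 0.11, 0.065 and 0.23 with C3a on the relative log2 scale. All 3 C3a arrays lay below all 3 controls, by 0.016 in the closest case, and control replicate 2 stood apart from the other 5 arrays. The difference was -0.34 (95% interval -0.76 to 0.080, adjusted p = 0.743 from limma). The mean over both probes differed by -0.12, so the direction for Il6st depends on the probe.

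Lifr, which pairs with gp130 for leukaemia inhibitory factor and cardiotrophin 1, read -2.24, -1.78 and -1.82 in the controls and -2.40, -1.70 and -1.62 with C3a. The replicate with number 1 was the lowest of each group, and the groups overlapped. The difference was 0.042 (95% interval -0.51 to 0.59, adjusted p = 0.963 from limma), the widest interval among the 7 genes. Without control replicate 1 it was -0.11.

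Il11ra1, the binding chain for interleukin 11, read 1.96, 1.73 and 1.77 in the controls and 1.84, 1.95 and 1.72 with C3a. Its difference was 0.018 (95% interval -0.24 to 0.28, adjusted p = 0.967 from limma), with the highest and the lowest arrays in opposite groups. Its direction also turned below 0 after quantile normalization (-0.0025) and with the percentile taken over probes detected on all arrays (-0.011).

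Among the other ligands, Lif, which encodes leukaemia inhibitory factor, read -2.83, -3.01 and -2.56 in the controls and -2.89, -2.27 and -2.32 with C3a. C3a replicates 2 and 3 lay above all controls, and C3a replicate 1 lay below 2 of them. The difference was 0.31 (95% interval -0.15 to 0.77), or 1.24-fold, with an adjusted p of 0.743 from limma. Leaving out C3a replicate 1 gave 0.50 (unadjusted p = 0.0185 from limma), and leaving out control replicate 2 or C3a replicate 2 gave 0.21 or 0.20. A further Lif probe, for a predicted transcript, passed the background mark nowhere.

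Ctf1, the gene of cardiotrophin 1, read -1.87, -1.58 and -1.61 in the controls and -1.48, -1.56 and -1.63 with C3a. The difference was 0.13 (95% interval -0.14 to 0.39, adjusted p = 0.760 from limma), and the groups overlapped, with C3a replicates 1 and 2 above and C3a replicate 3 below the 2 controls that measured it above background. It came mainly from replicate number 1, where the pair differed by 0.38, against 0.024 and -0.022 for the others.

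**Figure D3:**
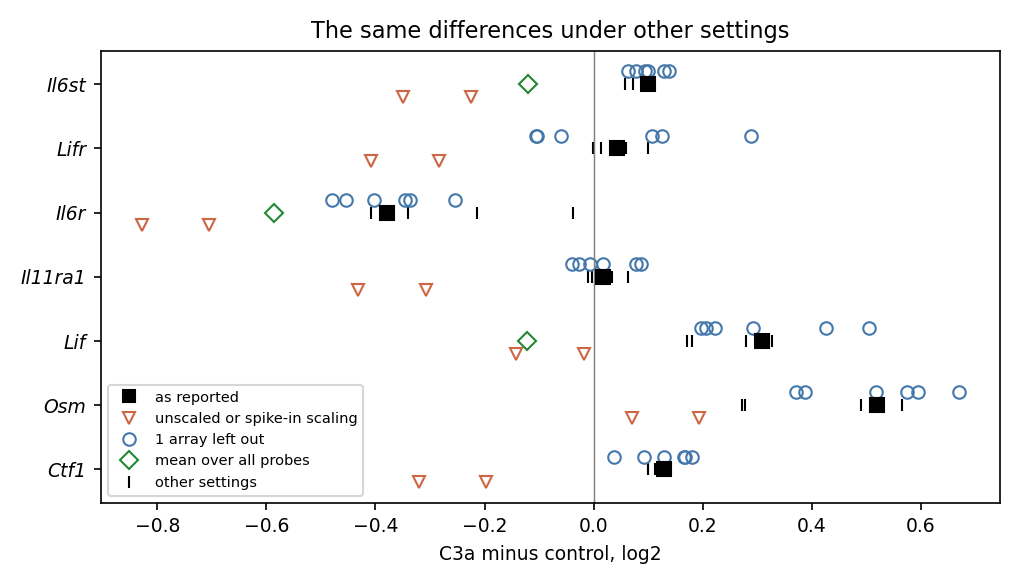
Difference between C3a and control, in log2 units, for the 7 tested genes as reported and under other settings. Il6r stayed below 0 and Osm above 0 in the settings that tested them, between -0.83 and -0.038 for Il6r and between 0.070 and 0.67 for Osm, while Il6st, Lifr, Il11ra1, Lif and Ctf1 lie on both sides of 0.

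The rest of the gp130 pathway was read from 4 lists. Of the 62 genes listed, 58 had a probe named through the rat table and 49 could be tested. None of the 49 passed an adjusted p under 0.05 from limma. At an unadjusted p under 0.05 from limma there were 2 higher and 1 lower with C3a. Over all 10390 tested genes, each read from 1 probe, 302 were higher and 252 lower, and over all tested probes the shares were 3.34% and 2.48%. With the replicate block 6 genes passed the unadjusted threshold, and over all tested probes there were then 1832 higher and 1366 lower, in place of 783 and 581. They included Tyk2, Bcl2l1 and Reg3b and, named after their values were seen, Pim1 (0.66) and Il4r (-0.39). Of the 49 genes, 34 lay above 0 and 15 below, with a median difference of 0.054, where 6299 of all 10390 tested genes lay above 0 and their median was 0.036.

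Among further ligands and receptor subunits of the family, 4 of 10 were tested and 0 of 4 passed either threshold. Il11 passed the background mark nowhere, so that neither interleukin 6 nor interleukin 11 was measured, although both have a binding chain whose probe was. The smallest p was that of Ctf2, a relative of cardiotrophin 1, with a difference of 0.19 (unadjusted p = 0.283 from limma).

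All 18 transducers, the JAK kinases, STAT factors and the adaptors and kinases of the Ras-ERK arm, passed the background mark on every array, and their median difference was 0.0063. One, the JAK family kinase Tyk2, was lower at the unadjusted threshold, where 252 of all 10390 tested genes were. Its relative log2 signal was -0.97, -0.85 and -0.87 in the controls and -1.34, -0.99 and -1.26 with C3a, a difference of -0.30 (unadjusted p = 0.0406, adjusted p = 0.743 from limma). All 3 C3a arrays lay below the controls, and a dimmer Tyk2 probe, well above background on 2 of 3 arrays per group, was not tested.

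Among the 7 inhibitors and shedding enzymes, 6 were tested, 5 of them above 0, and 0 passed the unadjusted threshold. Over all 10390 tested genes, 6299 lay above 0. The smallest p was that of Socs3, the feedback inhibitor that binds gp130. Its brighter probe read -0.27, -0.43 and -0.54 in the controls and -0.14, -0.17 and -0.28 with C3a, a difference of 0.22 (unadjusted p = 0.0859, adjusted p = 0.743 from limma). C3a replicate 3 lay just below control replicate 1, and the other C3a arrays above all controls.

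The dimmer Socs3 probe differed more. It read -2.41, -2.64 and -2.20 in the controls and -1.77, -1.90 and -1.87 with C3a, with all 3 C3a arrays above all 3 controls. The difference was 0.57 (95% interval 0.26 to 0.88), or 1.48-fold, rank 79 of 23438 by p. The unadjusted p was 0.00325 and the adjusted p 0.743 from limma, and with the replicate block 0.00329 and 0.221. Control replicate 1 did not measure this probe above background. The brighter probe is for a predicted Socs3 transcript, whereas this one is for a RefSeq transcript not marked as predicted. Since the gene is represented by its brighter probe, this one is given as a description, named after its value was seen.

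Of the 27 genes known to respond to gp130 signalling, 21 were tested, with 16 above 0, 5 below and a median difference of 0.11, to be read against the same 6299 of 10390. A2m, Fga, Fgb, Fgg and Lbp, acute-phase genes of the liver, passed the background mark on no array, whereas the acute-phase genes Hp and Lcn2 passed it on all 6. At the unadjusted threshold 2 genes were higher, where 302 of all 10390 tested genes were. The survival gene Bcl2l1 differed by 0.48 (unadjusted p = 0.00943 from limma), and Reg3b, a secreted lectin that oncostatin M is known to induce in cardiomyocytes, by 0.50 (unadjusted p = 0.0152 from limma).

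Reg3b read -3.30, -3.42 and -2.91 in the controls and -2.56, -2.69 and -2.87 with C3a. All C3a arrays lay above all controls, but C3a replicate 3 and control replicate 3 differed by only 0.041. Bcl2l1 read -2.54, -2.60 and -2.53 in the controls and -2.13, -2.28 and -1.80 with C3a, again without overlap. Of its 3 further probes, 1 passed the background mark nowhere, and the others differed by 0.047 and 0.29 with overlapping groups. The probe that differed by 0.047 was brighter in the controls than the reported probe (mean -2.44 against -2.56). The reported probe thus had the highest mean signal only through its C3a arrays, where it was high. For both genes the adjusted p from limma was 0.743. Neither was well above background on control replicate 1, so both were tested through the C3a group alone, where they were higher, and neither is tested when detection on all 6 arrays is required.

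**Figure D4:**
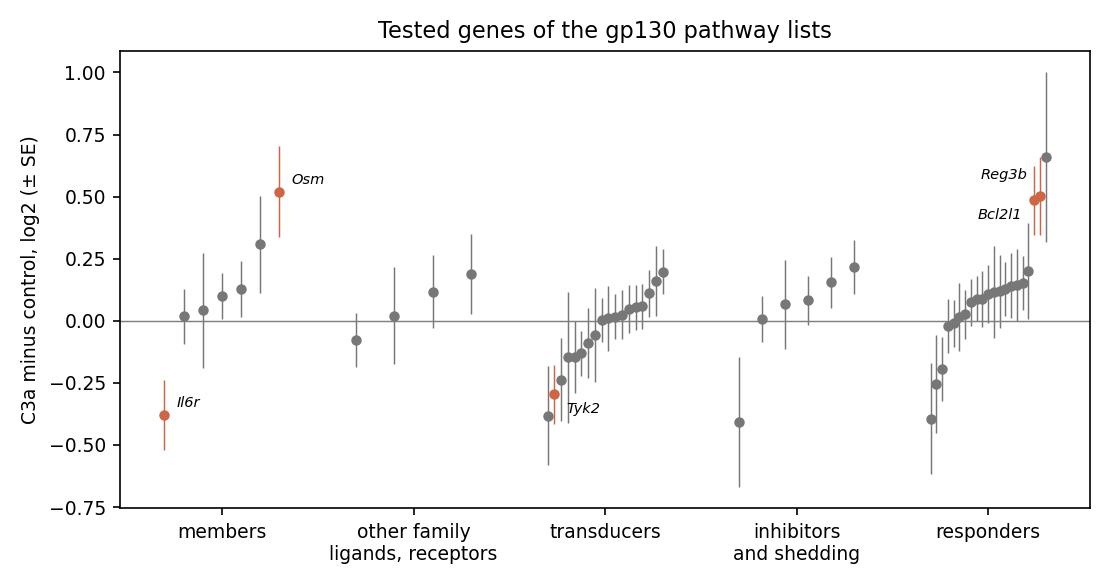
Difference between C3a and control, in log2 units with standard errors, for the 7 tested members and the 49 tested genes of the 4 pathway lists, each list sorted by its difference. Coloured and named are genes with an unadjusted p under 0.05 from limma; none passed after adjustment.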

How the data were processed

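RNA of 3 control and 3 C3a samples was labelled with Cy3 and hybridised to SurePrint G3 Rat arrays. The authors deposited the spot intensity from Agilent Feature Extraction 11.5.1.1, background-subtracted and not normalized between arrays, and a table of log2 values for 36638 probes, which matched log2 intensities centred on each array's 75th percentile (r of at least 0.99999). The accession of 46.3% of 45598 probes was in the GRCr8 gene table. Control and outlier spots were left out, spots of a probe were averaged, and log2 signals were centred on that percentile. Tested were the 23438 probes that passed the scanner software's background mark on all 3 arrays of either group, with limma 3.58.1 in R 4.3.3 (two-sided, Benjamini-Hochberg) after a check on simulated data. Precision is limited by the number of arrays. Same-numbered arrays had correlated deviations (r of 0.28, 0.32 and 0.31, against -0.26 to -0.093 for others), the basis of the replicate block. The deviations were taken from the group mean and so cancel within a group. Positive values for the same number therefore bring negative ones for the others, and the contrast is in part built in. The members, the gene lists and the tests were chosen with earlier results of these data known. Named were all members, each list gene at an unadjusted p under 0.05 or else the one with the smallest p, and exceptions are marked. The alternatives were other scalings, background correction, filters, fits, the deposited table and each array left out. One gene of the pathway lists is not reported by name here.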

Additional observations from a re-analysis of the deposited data

How the results depend on the processing

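No member and no gene of the pathway lists passed an adjusted p under 0.05 from limma in any setting. None did in the unpaired t-test that the methods name for comparing means, here with Benjamini-Hochberg adjustment added. For the arrays the methods name an analysis of variance at p under 0.05 with Tukey's HSD for several groups, and no Benjamini-Hochberg adjustment. Over all probes the count of 0 became 4 without normalization and 16 with spike-in scaling. Before adjustment, the 783 higher probes at p under 0.05 fell in number to 41 when arrays were not normalized, 9 with spike-in scaling, 370 when detection was asked for on all 6 arrays, 359 without a filter, and came to 1832 with the replicate block, and leaving out each array gave 441 to 1263. The 581 lower became 2558 without normalization, 1702 with spike-in scaling, 356 with normexp, 1366 with the replicate block and 356 in the methods' t-test, and 268 to 876 with an array left out.

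The 2 members at an unadjusted p under 0.05 became 1 with quantile normalization, without normalization and with spike-in scaling. They became 0 with normexp, detection asked for on all 6 arrays, no filter, a variance trend, array weights and the methods' t-test. Leaving out each array gave 0 to 2, with 0 without control replicate 2 and without C3a replicate 3. The 3 pathway genes became 6 without normalization, with the replicate block and with array weights, and 1 when detection was asked for on all 6 arrays. Leaving out each array gave 1 to 5.

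Osm and Il6r kept their direction in the alternatives that tested them, and were not tested when detection was asked for on all 6 arrays, which removed their probes. Without normalization the difference was -0.22 for Il6st, -0.28 for Lifr, -0.31 for Il11ra1, -0.017 for Lif and -0.20 for Ctf1, and with spike-in scaling -0.35, -0.41, -0.43, -0.14 and -0.32. The mean over all probes gave -0.12 for both Il6st and Lif. For Lif this mean includes a probe that passed the background mark on no array. Lifr was at -0.0020 with array weights, and Il11ra1 at -0.0025 with quantile normalization and -0.011 with the percentile over detected probes. Leaving out each array gave -0.11 to 0.29 for Lifr and -0.040 to 0.087 for Il11ra1. The cause was not tested. The more lenient detection mark raised the members found on all 6 arrays from 2 to 7.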
